A study of Mus musculus with 107 samples.

Results

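Lenvatinib (LEN) was compared with no treatment (NT) in subcutaneous Hepa 1-6 tumors collected on day 8. The 6 tumors of this comparison, chosen by cell line, treatment and day from the labels, were 3 LEN tumors numbered 1, 4 and 5 and 3 NT tumors numbered 2, 3 and 4, out of 107 tumors in the series. Hepa 1-6 is a mouse hepatocellular carcinoma cell line, implanted here in the flank of 7-week-old male C57L/J mice. LEN mice received 10 mg/kg by mouth once a day from day 1, and NT mice were left untreated, with no vehicle dosing described. A further 3 treatment-naive Hepa 1-6 tumors, sampled before dosing would have begun, are given as context and entered no test. Bulk RNA of whole tumors was depleted of ribosomal RNA and sequenced, and expression is in TPM, a unit of transcript abundance that scales each tumor to the same total and corrects for gene length. All 6 day 8 tumors came from 1 cell line grown under the skin rather than in the liver, and nothing in the sources ties single libraries to separate animals, so p-values measure the spread between these tumors. In whole tumors, fewer cells of a type and less RNA per cell cannot be told apart.

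Lenvatinib is an oral inhibitor of the receptor tyrosine kinases of the VEGF, FGF and PDGF families and of KIT and RET. VEGF from hypoxic tumor tissue acts on endothelial receptors to keep sprouting vessels alive, and blocking it prunes tumor capillaries. Hepatocellular carcinomas are richly vascularised tumors, some depend on FGF receptor 4 signaling, and the drug is used in this disease.

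The tumors carried the liver tumor markers of their line at high levels. Albumin (Alb) was at 1810, 1975 and 2265 TPM in LEN tumors 1, 4 and 5 and at 2400, 2341 and 2129 TPM in NT tumors 2, 3 and 4, and alpha-fetoprotein (Afp), a fetal liver protein that many hepatocellular carcinomas express, was at 1023, 1263 and 1617 TPM against 1579, 1715 and 1583 TPM. From here on, 3 values for a group follow that order of tumor numbers. No 2 columns were identical. The correlation of log2(TPM + 1) across genes, which are not independent of each other, was 0.942 to 0.952 between LEN tumors, 0.952 to 0.961 between NT tumors and 0.93 to 0.951 between the groups. NT tumor 4 stood apart from the other NT tumors in stromal and immune genes. Its mean log2(TPM + 1) over 21 monocyte and neutrophil genes was 3.88, against 2.84 and 2.59 in NT tumors 2 and 3, and over 18 matrix genes it was 6.61, against 5.71 and 5.84. Results that rest on this tumor are therefore given with and without it. The tumor was singled out by these lists, so leaving it out raises their mean change by construction and is no separate support. Its correlations with NT tumors 2 and 3, 0.954 and 0.952, were not below the range between LEN tumors. LEN tumor 1 had the highest level of skeletal muscle, adipocyte and immunoglobulin genes. Protein-coding genes took 51.6% to 56.4% of all TPM in LEN tumors and 50.2% to 52.3% in NT tumors. The median log2 change over the 16561 genes tested was 0.14 in favour of LEN, with 11578 genes positive and 4983 negative, and it was 0.01 after scaling to the upper quartile. Changes of gene lists below are therefore to be read against 0.14 and not against 0.

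Few genes passed the threshold in the fit of the 6 tumors. At an adjusted p under 0.05 (limma on log2(TPM + 1), Benjamini-Hochberg over all genes with a mean of at least 1 TPM), 7 genes rose with LEN, 0.0423% of those tested, and 4 fell, 0.0242%. Unadjusted p-values under 0.05 were far more common, with 3256 genes higher (19.7%) and 657 lower (3.97%) in LEN, and after upper quartile scaling the split turned to 1494 higher (8.94%) and 1905 lower (11.4%). Without NT tumor 4, 253 genes rose (1.53%) and 22 fell (0.133%), with 21.8% higher and 2.83% lower at an unadjusted p under 0.05. Leaving out NT tumor 2 or NT tumor 3 left no gene called higher, and without LEN tumor 1 there were 1 higher and 1 lower. When the spread was estimated from all 72 day 8 tumors of the 12 models, 1519 genes rose (8.75%) and 163 fell (0.939%) in Hepa 1-6, with upper quartile scaling 897 rose (5.19%) and 1079 fell (6.24%), and without NT tumor 4 the shares were 9.91% and 0.663%.

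Cilp showed the largest rise among these genes. It encodes cartilage intermediate layer protein, a matrix protein of mesenchymal cells. Cilp was at 13.6, 16.4 and 11.4 TPM in the LEN tumors and at 1.33, 1.05 and 1.95 TPM in the NT tumors. Every LEN tumor was far above every NT tumor, and above the treatment-naive tumors at 2.6, 1.5 and 2.96 TPM. The log2 change was 2.6 ± 0.19 (SE, n = 3 per group, limma adjusted p = 0.0252), and it was 2.75 without NT tumor 4 and 2.51 with upper quartile scaling (adjusted p = 0.0394).

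The other called genes that rose included genes of myeloid cells and activated lymphocytes. Clec4d, a C-type lectin receptor of monocytes and neutrophils, was at 12.4, 11.7 and 9.19 TPM with LEN and at 1.40, 1.70 and 2.77 TPM without, a log2 change of 2.05 ± 0.20 (adjusted p = 0.0477). Tnfrsf9, which encodes the T-cell costimulatory receptor 4-1BB, was at 51.9, 65.1 and 46.8 TPM against 20.3, 19.8 and 23.3 TPM, a change of 1.32 ± 0.14 (adjusted p = 0.0477). Neither passed with upper quartile scaling (adjusted p = 0.0788 and 0.0801). In both genes the groups were wide apart, but treatment-naive tumor 3 reached 12.1 TPM of Clec4d and 51.6 TPM of Tnfrsf9, within the LEN range.

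A smaller and tight rise was seen in Neat1, Hdac5 and Ahnak2. Neat1, the long non-coding RNA that builds nuclear paraspeckles, was at 627, 633 and 588 TPM against 359, 301 and 307 TPM (log2 change 0.94 ± 0.10, adjusted p = 0.0477). Hdac5, a class IIa histone deacetylase, was at 54.3, 48.3 and 52.8 TPM against 29.4, 27.5 and 29.8 TPM (0.82 ± 0.08, adjusted p = 0.0477). Ahnak2, a very large scaffold protein, was at 30.0, 29.9 and 31.4 TPM against 18, 17.3 and 17.3 TPM (0.76 ± 0.08, adjusted p = 0.0477). None of the 3 passed with upper quartile scaling (adjusted p = 0.0801 each). None of these groups overlapped, while the treatment-naive levels of Ahnak2, at 32.6, 21.5 and 36.1 TPM, reached past the LEN tumors.

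Mest was the protein-coding gene that fell. It is an imprinted gene expressed from the paternal allele in embryonic mesoderm and is one of the 365 endothelial cell (EC)-related genes that the study chose from single cells of this tumor. Mest was at 1.66, 1.70 and 1.40 TPM in the LEN tumors against 6.08, 9.05 and 9.34 TPM in the NT tumors. All LEN tumors were also below the treatment-naive tumors at 6.97, 4.38 and 7.29 TPM. The log2 change was -1.81 ± 0.18 (adjusted p = 0.0477). Mest had an adjusted p of 0.0526 with upper quartile scaling and 0.241 without NT tumor 3, and in the 11 other models together it changed by -1.34, a difference from Hepa 1-6 that did not pass (adjusted p = 0.404).

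The 3 remaining calls were short or antisense RNAs that were listed at 0 in every LEN tumor. The small nucleolar RNA Gm25973 was at 10.6, 31.1 and 9.56 TPM in the NT tumors, the small nucleolar RNA Gm22353 at 20.4, 6.89 and 18.6 TPM, and the antisense RNA Gm37401 at 11.3, 8.87 and 10.5 TPM. Gm25973 was also listed at 0 in 2 treatment-naive tumors. Both small nucleolar RNAs missed the threshold with upper quartile scaling (adjusted p = 0.0677 and 0.0588). Gm37401 had the lowest adjusted p of all genes, 0.00195, and lies on the minus strand of chromosome 9 between 108337089 and 108338273, and whether the counting used strand is not given in the sources used here, so reads of this antisense RNA and of a gene opposite cannot be told apart. In the GENCODE M21 annotation of GRCm38, the build the authors mapped to, Cilp spans chr9:65265180-65280605 on the plus strand and Mest chr6:30723547-30748465 on the plus strand.

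**Figure D1:**
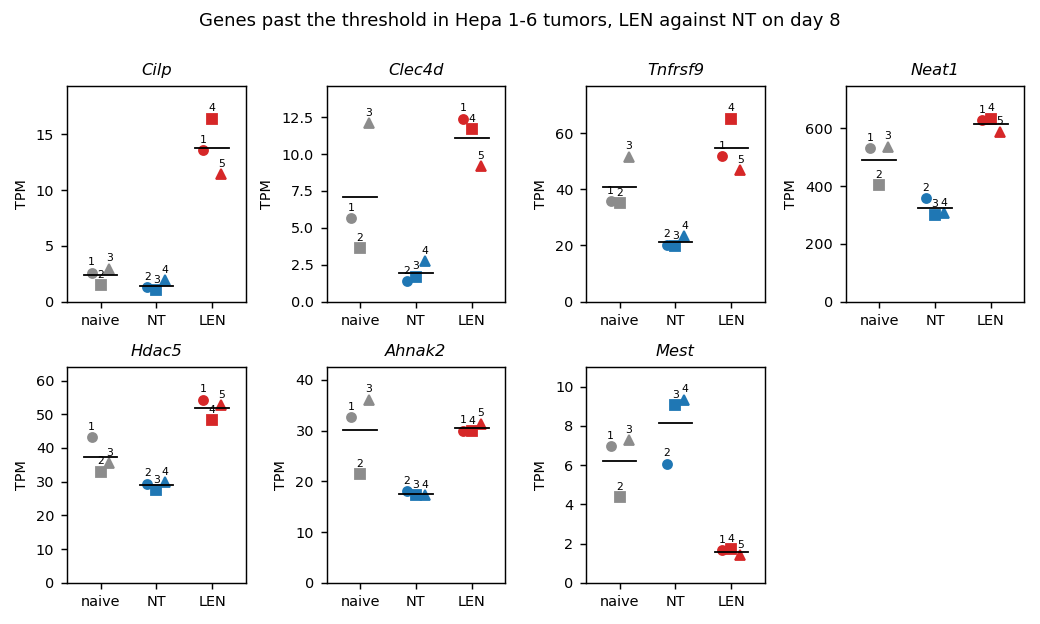
TPM of 7 longer genes past the threshold in single Hepa 1-6 tumors (treatment-naive, NT and LEN, 3 each; numbers beside points are tumor numbers, lines are group means, axes start at 0). LEN and NT tumors do not overlap in any panel, with Cilp at 11.4 to 16.4 TPM in LEN and Mest at 1.40 to 1.70 TPM in LEN.

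Of the next genes in line, those with the lowest unadjusted p-values among falling protein-coding genes were Rgs5, Serpind1, Asb2 and Mcam. Serpind1 encodes heparin cofactor II, a plasma thrombin inhibitor made by the liver, and was at 8.25, 8.82 and 11.9 TPM with LEN against 19.9, 22.6 and 20.4 TPM without. Asb2, a substrate adaptor of a ubiquitin ligase, was at 3.82, 2.58 and 3.95 TPM against 7.97, 8.76 and 9.64 TPM. The groups did not overlap in either gene. Both missed the threshold in the 6-tumor fit (adjusted p = 0.0693 each), and both fell in the fit of all 72 tumors (adjusted p = 1.11e-06 and 0.00321).

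The genes by which the study scores microvessel density gave different directions. The MVD gene score, the mean log2(TPM + 1) of Cdh5, Eng, Kdr, Pcdh12, Sparcl1 and Tek, was 2.81, 2.65 and 2.29 in the LEN tumors and 2.62, 2.69 and 3.04 in the NT tumors. LEN tumors 1 and 4 lay inside the NT range and LEN tumor 5 below it. The difference was -0.20 with an SE of 0.20, and it shrank to -0.07 without NT tumor 4 and to -0.05 without LEN tumor 5.

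Cdh5 and Pcdh12 were lower in every LEN tumor. Cdh5 encodes VE-cadherin, the adhesion molecule of endothelial junctions, and was at 8.38, 9.13 and 5.47 TPM against 11.1, 15.8 and 20.0 TPM, a log2 change of -0.93 ± 0.25. Pcdh12, an endothelial protocadherin, was at 0.83, 1.02 and 0.76 TPM against 1.52, 1.84 and 2.61 TPM, a change of -0.66 ± 0.21. Neither passed in the 6-tumor fit (adjusted p = 0.106 and 0.138), and both fell in the fit of 72 tumors (adjusted p = 0.00321 and 0.00502).

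Kdr, Sparcl1, Eng and Tek did not separate the groups. Kdr, which encodes VEGF receptor 2, was at 3.79, 2.96 and 2.21 TPM against 3.26, 3.73 and 4.98 TPM, so that only LEN tumors 4 and 5 lay below all NT tumors. Eng, the TGF-beta co-receptor endoglin, was at 21.8, 15.5 and 12.1 TPM against 11.4, 7.42 and 14.7 TPM, and 2 of 3 LEN tumors were above every NT tumor. Tek, the angiopoietin receptor Tie2, was at 2.61, 1.12 and 0.45 TPM against 0.59, 0.75 and 0.77 TPM, with the highest and the lowest tumor both in the LEN group. Sparcl1, a matricellular protein of vessel walls, was at 16.8, 20.3 and 19.1 TPM against 20.1, 20.4 and 23.9 TPM, nearly level. Their adjusted p-values were 0.371 for Kdr, 0.296 for Eng, 0.52 for Tek and 0.355 for Sparcl1.

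**Figure D2:**
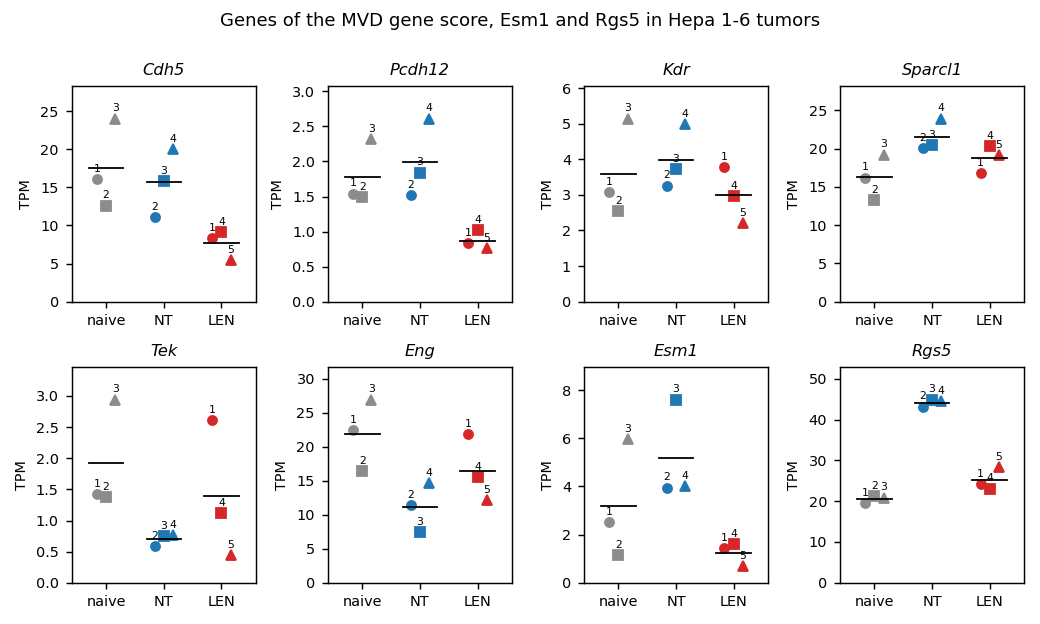
TPM of the 6 genes of the MVD gene score, of the tip cell gene Esm1 and of the pericyte gene Rgs5 in single Hepa 1-6 tumors (treatment-naive, NT and LEN, 3 each; numbers beside points are tumor numbers, lines are group means, axes start at 0). Cdh5, Pcdh12, Esm1 and Rgs5 are lower in every LEN tumor than in every NT tumor, while Eng and Tek have their highest day 8 tumor in the LEN group.

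Over a wider list of 33 endothelial markers, 30 were tested and the median log2 change was -0.33. None passed in the 6-tumor fit, 9 had an unadjusted p under 0.05 and all 9 were lower (3.97% of all genes were), and the same number were lower in every LEN tumor than in every NT tumor (5.02% of all genes were). In the fit of 72 tumors, 5 fell, namely Cdh5, Gpihbp1, Pcdh12, Mmrn2 and Erg (0.939% of all genes fell). Without NT tumor 4 the median was -0.20, and 5 were lower and 1 higher at an unadjusted p under 0.05 (2.83% and 21.8% of all genes). In the fit of 72 without that tumor 3 fell and 1 rose (0.663% and 9.91% of all genes). Gpihbp1, which carries lipoprotein lipase to the capillary surface, was at 5.78, 4.39 and 4.42 TPM against 9.13, 9.30 and 12.1 TPM, a log2 change of -0.93 ± 0.15 (adjusted p = 0.0693 in the 6-tumor fit and 0.0272 in the fit of 72). Mmrn2, an endothelial matrix protein, was at 2.41, 2.23 and 1.19 TPM against 2.90, 3.05 and 4.27 TPM. Pecam1, the CD31 antigen of endothelial cells, was at 18.2, 25.3 and 16 TPM against 18.2, 22 and 26.0 TPM, so that the groups overlapped almost fully.

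Single genes of sprouting endothelium and of pericytes were lower in every LEN tumor. Of 18 tip cell and VEGF response genes, 6 had an unadjusted p under 0.05 and all 6 were lower, where 3.97% of all genes were. After upper quartile scaling 9 were (11.4% of all genes), and the list median of -0.20 became -0.34. Esm1, the tip cell proteoglycan endocan and a classic VEGF target, was at 1.44, 1.60 and 0.69 TPM against 3.95, 7.60 and 4.00 TPM. No LEN tumor came near the NT range. Its log2 change was -1.44 ± 0.28 (adjusted p = 0.08 in the 6-tumor fit and 1.45e-04 in the fit of 72), and treatment-naive tumors were at 2.51, 1.14 and 5.96 TPM. Nid2, a basement membrane protein, was at 4.29, 4.36 and 3.16 TPM against 6.40, 7.09 and 8.26 TPM and fell in the fit of 72 tumors (adjusted p = 0.0116). Pgf, the VEGF receptor 1 ligand placental growth factor, was at 6.40, 9.59 and 7.69 TPM against 4.22, 7.59 and 3.75 TPM.

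Rgs5 marks pericytes, the mural cells of capillaries. It was at 24.2, 23.1 and 28.3 TPM with LEN against 43.2, 44.9 and 44.5 TPM without, and at 19.5, 21.3 and 20.9 TPM in treatment-naive tumors. The NT tumors were nearly identical to each other and far above both other groups. The log2 change was -0.79 ± 0.10 (adjusted p = 0.0655 in the 6-tumor fit, 0.045 without NT tumor 4 and 0.0375 in the fit of 72, where the call was lost without that tumor). Mcam, an adhesion molecule of pericytes and endothelium, was at 19.7, 18.1 and 19.8 TPM against 29.2, 32.8 and 28.8 TPM. The potassium channel genes of pericytes, Abcc9 at 5.18, 3.58 and 4.83 TPM against 7.22, 6.98 and 6.24 TPM and Kcnj8 at 4.28, 5.26 and 4.76 TPM against 6.95, 7.33 and 7.16 TPM, were also lower in every LEN tumor. Over all 12 pericyte and smooth muscle genes tested the median was -0.08, below the 0.14 of all genes, and it was 0.02 without LEN tumor 4. Of the 12, 5 were lower at an unadjusted p under 0.05 (3.97% of all genes). The mean log2(TPM + 1) over the list was 3.56, 3.53 and 3.52 in LEN tumors against 3.63, 3.74 and 3.71 in NT tumors, and the summed levels were 172, 187 and 173 TPM against 195, 220 and 220 TPM, so that the groups did not overlap on either scale.

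The 365 EC-related genes as a whole had a median near that of all genes. They had been chosen by the study from Hepa 1-6 single cells, of which 321 were tested here, and their median log2 change was 0.10, below the 0.14 of all genes and -0.03 after upper quartile scaling. In the fit of 72 tumors 26 of 332 rose and 10 fell, where 8.75% and 0.939% of all genes did, so that the share that fell was above the background. With upper quartile scaling 17 rose and 31 fell (5.19% and 6.24% of all genes), and without NT tumor 4, 48 rose and 7 fell (9.91% and 0.663% of all genes). The largest positive changes among the members were in Ace and AA467197. Ace, the angiotensin-converting enzyme of endothelium and macrophages, was at 14.3, 10.2 and 8.68 TPM against 2.54, 2.29 and 5.87 TPM, a change of 1.46 ± 0.31 (adjusted p = 0.0841 in the 6-tumor fit and 7.78e-04 in the fit of 72). AA467197 was at 37.4, 48.4 and 21.7 TPM against 11.2, 8.59 and 20.1 TPM. In both genes every LEN tumor was above every NT tumor, with NT tumor 4 the nearest.

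The receptors that lenvatinib inhibits had a median change near that of all genes. Of 10 receptor genes 9 were tested and 2 were higher at an unadjusted p under 0.05 (19.7% of all genes), with a median log2 change of 0.10 that became -0.05 after upper quartile scaling and -0.06 without LEN tumor 5. Pdgfra, the PDGF receptor of fibroblasts, was at 17.7, 14.5 and 14.6 TPM against 6.48, 5.96 and 13.5 TPM, a change of 0.86 ± 0.28 (adjusted p = 0.139 in the 6-tumor fit, 0.0298 without NT tumor 4 and 0.0195 in the fit of 72). NT tumor 4 was the one NT tumor close to the LEN group. Fgfr1, the mesenchymal FGF receptor, was at 79.4, 80.4 and 91.0 TPM against 62.5, 67.7 and 63.5 TPM, above every NT tumor (adjusted p = 0.0911).

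Fgfr4, the FGF receptor of hepatocytes, was at 6.53, 7.25 and 11.6 TPM against 11.9, 12.7 and 9.61 TPM, and LEN tumor 5 lay inside the NT range (adjusted p = 0.282). Flt1, VEGF receptor 1, was at 15.8, 21.5 and 12.0 TPM against 12.6, 11.3 and 15.2 TPM, and Flt4, the lymphatic VEGF receptor 3, at 12.9, 12.4 and 17.8 TPM against 13.2, 12.5 and 13.9 TPM. The groups overlapped in both. Fgfr2, Fgfr3 and Kit were at 0.87 to 3.90 TPM in all 6 tumors and overlapped as well, with adjusted p-values of 0.455, 0.621 and 0.55. Ret, at 0.64, 0.68 and 0.74 TPM against 0.18, 0.15 and 0.43 TPM, was too low for the 6-tumor fit and rose in the fit of 72 (adjusted p = 0.011), at a level near the lowest that was tested.

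Ligands and co-receptors of these pathways had positive changes. All 11 tested of 15 ligand and co-receptor genes had a positive change, with a median of 0.40, and 5 of them an unadjusted p under 0.05 (19.7% of all genes were higher). Vegfa, the hypoxia-induced ligand of VEGF receptors 1 and 2, was at 170, 176 and 211 TPM against 120, 101 and 112 TPM. The LEN tumors were clearly separate from the NT tumors and from the treatment-naive tumors at 140, 102 and 106 TPM. Its log2 change was 0.73 ± 0.11 (adjusted p = 0.0693 in the 6-tumor fit and 0.0106 in the fit of 72). Vegfd and Vegfc are ligands of VEGF receptor 3. Vegfd was at 4.51, 3.12 and 3.32 TPM against 1.14, 1.51 and 2.25 TPM and rose in the fit of 72 tumors (adjusted p = 0.00132), and Vegfc was at 3.72, 5.59 and 6.68 TPM against 2.44, 3.91 and 3.42 TPM. Nrp2, a VEGF co-receptor, was at 26.1, 24.9 and 22.2 TPM against 14.1, 12.6 and 19.3 TPM and rose in the same fit (adjusted p = 0.0024).

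Feedback genes of FGF and MAP kinase signaling gave no common direction, with a median of 0.04 over 18 genes that became -0.11 after upper quartile scaling. The immediate early gene Fos was at 15.5, 21.6 and 10.4 TPM against 5.88, 5.61 and 8.42 TPM and rose in the fit of 72 tumors (adjusted p = 0.00527), while Spry1, a feedback inhibitor of receptor tyrosine kinases, was at 16.4, 13.7 and 18 TPM against 20.6, 20.5 and 20.4 TPM. The growth factor-induced gene Ier3 was at 46.5, 52.9 and 76.7 TPM against 35.0, 31.3 and 42.8 TPM. The MAP kinase phosphatase Dusp4 was at 85.9, 87.1 and 91.3 TPM against 72.1, 74.6 and 62.0 TPM. All 4 genes separated the groups, and 3 of the 4 were higher with LEN.

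Genes of the hypoxia response and of glycolysis were higher in nearly all members. HIF-1, the transcription factor that accumulates at low oxygen, binds hypoxia response elements with the core ACGTG and turns on genes for glycolysis, lactate export, collagen hydroxylation and angiogenesis. To show such cores beside the measured genes, the windows below give the part around the first ACGTG, on either strand, in the RefSeq promoter (GRCm38.p6, 250 bases before to 50 after the start site) of the 4 list members with the largest changes that held one. Capitals mark the core, or the E-box CACGTG where the core lies within one.
Slc16a3, chr11:120949028-120949056, plus strand: caggcagcggtgACGTGcgcgggggacgt
P4ha2, chr11:54100834-54100862, plus strand: tgtgcatcgcatACGTGcagcgcgtggcg
Bnip3, chr7:138909598-138909626, minus strand: gcgcacgcgccgCACGTGccacacgctcc
Vegfa, chr17:46025358-46025386, minus strand: ggagtgcgtgccCACGTcagagagcaaca
Of 35 members, 30 were matched to 43 promoter windows, and 25 of these (58.1%) held ACGTG on either strand, compared with 19.7% of all 32544 windows of 300 bases and 24.7% of the 13153 windows of genes tested. The letters ACGTG also lie in the E-box CACGTG, and a match is a description of the sequence only.

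Of the 34 hypoxia and glycolysis genes tested, 30 had a higher level at an unadjusted p under 0.05 (19.7% of all genes) and 31 were higher in every LEN tumor than in every NT tumor, where 24.6% of all genes were. The median log2 change was 0.47, and 0.32 after upper quartile scaling, when 22 had an unadjusted p under 0.05 (8.94% of all genes were higher). None passed in the 6-tumor fit, and 10 of 35 rose in the fit of 72 tumors (8.75% of all genes) and 5 with upper quartile scaling (5.19%). Slc16a3, the lactate exporter MCT4 with the core 27 bases before its start site, was at 51.4, 49.1 and 40.9 TPM against 19.4, 18 and 29.1 TPM. The change was 1.08 ± 0.19 (adjusted p = 0.0702 in the 6-tumor fit and 4.61e-04 in the fit of 72). P4ha2, a collagen prolyl hydroxylase subunit, was at 60.4, 52.9 and 67.1 TPM against 33.3, 30.8 and 38.9 TPM (adjusted p = 0.0114 in the fit of 72), and the mitophagy receptor Bnip3 at 201, 206 and 242 TPM against 155, 115 and 121 TPM, where the fit of 72 gave 0.0785.

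Other members moved likewise. Lox, the collagen-crosslinking lysyl oxidase, was at 76.3, 96.4 and 79.2 TPM against 23.1, 34.7 and 66.9 TPM, where NT tumor 4 again came closest to the LEN tumors. Ndrg1, a stress-responsive gene of hypoxic cells, was at 213, 230 and 271 TPM against 151, 138 and 120 TPM. Pfkfb4, which makes the glycolysis activator fructose 2,6-bisphosphate, was at 9.55, 13.9 and 9.20 TPM against 3.98, 5.34 and 6.69 TPM. All of these rose in the fit of 72 tumors, with adjusted p-values of 0.0371 for Lox, 0.048 for Ndrg1 and 0.00667 for Pfkfb4. The glycolytic enzyme genes Ldha and Pgk1 were at 574 to 614 and 488 to 565 TPM in LEN tumors against 439 to 468 and 359 to 396 TPM in NT tumors. The list's mean log2(TPM + 1) was 6.37, 6.43 and 6.49 in LEN tumors and 5.88, 5.81 and 6.01 in NT tumors, and treatment-naive tumors were between them at 6.34, 6.10 and 6.17.

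Fibroblast and matrix genes had the largest median change among lists with at least 10 tested genes, 0.80 over 18 genes. 12 of the 18 had an unadjusted p under 0.05, all higher (19.7% of all genes were), 9 rose in the fit of 72 tumors (8.75% of all genes) and none passed in the 6-tumor fit. With upper quartile scaling 8 were higher and 1 lower at an unadjusted p under 0.05 (8.94% and 11.4% of all genes) and 7 rose in the fit of 72 (5.19%). Without NT tumor 4 the median was 1.15 and 10 of the 18 rose past the adjusted threshold (1.53% of all genes). That tumor had been singled out by its level of this list, and over all omissions of 1 tumor the median was 0.58 to 1.15. Mmp2, a gelatinase of stromal cells, was at 67.5, 57.8 and 45.3 TPM against 12.0, 10.6 and 29.8 TPM. Every LEN tumor was above every NT tumor, and NT tumor 4 was well above the other NT tumors. The change was 1.77 ± 0.37 (adjusted p = 0.0811 in the 6-tumor fit, 0.0174 without NT tumor 4 and 1.26e-04 in the fit of 72). Col3a1, a fibrillar collagen of loose connective tissue, was at 1145, 815 and 744 TPM against 208, 258 and 551 TPM (adjusted p = 0.0952, 0.0312 without NT tumor 4 and 0.00444 in the fit of 72).

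Pdpn, the glycoprotein podoplanin of lymphatic and stromal cells, was at 10.5, 9.25 and 11.8 TPM against 1.2, 4.24 and 5.04 TPM. Lum, a collagen-binding proteoglycan, was at 6.55, 5.25 and 7.06 TPM against 2.63, 1.5 and 3.90 TPM. Both separated the groups and both rose in the fit of 72 tumors (adjusted p = 1.10e-04 and 0.0492). Col1a1, the main chain of type I collagen, was at 807, 750 and 642 TPM against 350, 368 and 680 TPM, where NT tumor 4 lay among the LEN tumors. The stromal chemokine Cxcl12, which is on none of the lists and was picked after its values were seen, was at 102, 74.3 and 64.5 TPM against 14.2, 12.5 and 43.1 TPM and rose in the fit of 72 tumors (adjusted p = 0.00181). Treatment-naive tumors, at 32.3 to 93.5 TPM of Mmp2 and 482 to 1100 TPM of Col3a1, spanned much the same range as LEN tumors.

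**Figure D3:**
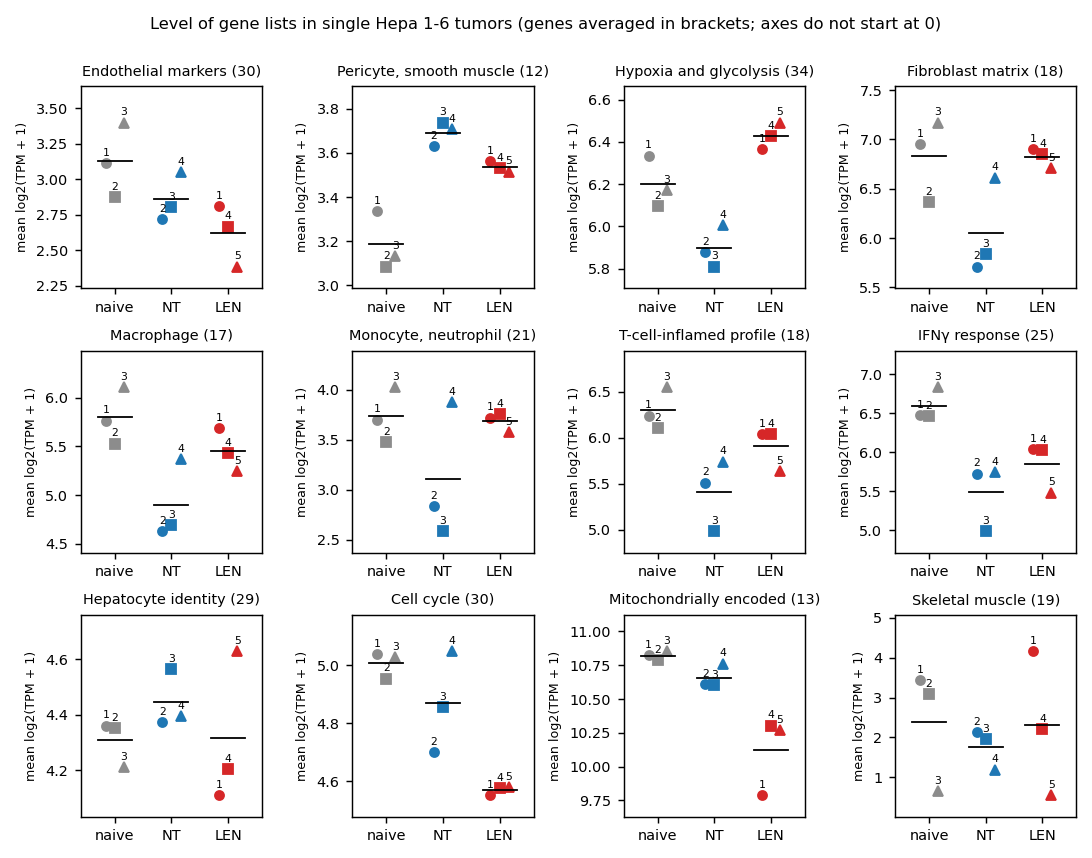
Mean log2(TPM + 1) over the tested genes of 12 lists in single Hepa 1-6 tumors (treatment-naive, NT and LEN, 3 each; numbers beside points are tumor numbers, lines are group means, and the axes do not start at 0). Hypoxia genes are at 6.37 to 6.49 in LEN and 5.81 to 6.01 in NT, and in the matrix, macrophage, and monocyte and neutrophil panels NT tumor 4 lies well above NT tumors 2 and 3.

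Myeloid lists had positive medians, and the order of single tumors depended on the scale. By the mean log2(TPM + 1) over the macrophage list, LEN tumors were at 5.69, 5.44 and 5.24 against 4.63, 4.69 and 5.37, so that NT tumor 4 was within the LEN range. Summed over the list, where abundant genes weigh most, they were at 5060, 4470 and 5550 TPM against 4610, 4020 and 3880 TPM, with NT tumor 2 above LEN tumor 4 and NT tumor 4 the lowest. Of 17 macrophage genes tested all 17 had a positive change, with a median of 0.56, but 5 had an unadjusted p under 0.05 (19.7% of all genes were higher) and 2, Trem2 and Spp1, rose in the fit of 72 tumors (8.75% of all genes did). Without NT tumor 4 the median was 0.77, 13 were higher at an unadjusted p under 0.05 (21.8% of all genes) and 9 rose in the fit of 72 (9.91%). Trem2, a lipid receptor of tumor-associated macrophages, was at 16.1, 16.8 and 8.61 TPM against 4.56, 3.55 and 7.83 TPM, a change of 1.24 ± 0.32 (adjusted p = 0.104 in the 6-tumor fit and 1.40e-04 in the fit of 72). LEN tumor 5 and NT tumor 4 were the pair that nearly met. Csf1r, the receptor that macrophages need for survival, was at 88, 76.9 and 54.1 TPM against 44.4, 36.1 and 58.9 TPM, and the mannose receptor Mrc1 at 39.3, 37.2 and 28.6 TPM against 11.8, 19.3 and 41.0 TPM. The scavenger receptor Cd163 was at 5.08, 3.44 and 3.24 TPM against 0.44, 2.63 and 3.85 TPM and the lysosomal protein Cd68 at 83.4, 92.1 and 71.3 TPM against 44.2, 40.6 and 69.2 TPM.

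Monocyte and neutrophil genes included some of the largest changes. The mean log2(TPM + 1) over the list was 3.72, 3.76 and 3.58 in LEN tumors, below the 3.88 of NT tumor 4 but above the 2.84 and 2.59 of NT tumors 2 and 3, while the summed TPM of NT tumor 4 (476) was within the LEN range (464 to 682). The median change over 21 genes was 0.51 and became 0.87 without NT tumor 4, 8 of 21 were higher at an unadjusted p under 0.05 (19.7% of all genes) and 4 of 19 (8.75% of all genes), Chil3, Nos2 and Ptgs2 among them, rose in the fit of 72 tumors. Nos2, the inducible nitric oxide synthase, was at 75.2, 78.0 and 39.1 TPM against 13.2, 5.24 and 15.8 TPM, a change of 2.45 ± 0.42 (adjusted p = 0.0702 in the 6-tumor fit and 1.04e-05 in the fit of 72). Retnlg, a neutrophil resistin-like protein, was at 60.9, 62.6 and 43.9 TPM against 14.4, 18.7 and 26.8 TPM. No LEN tumor overlapped the NT tumors in either gene. Chil3, a chitinase-like protein of monocytes, was at 39.6, 48.2 and 10.3 TPM against 1.93, 1.37 and 10.8 TPM, so that LEN tumor 5 and NT tumor 4 overlapped. S100a9, a calcium-binding protein of neutrophils, was at 16.2, 15.1 and 22.3 TPM against 5.73, 3.67 and 58.0 TPM, where NT tumor 4 was the highest of the 6.

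Antigen presentation genes had positive medians, and few members passed the adjusted threshold. Of 19 MHC class I pathway genes 11 had an unadjusted p under 0.05, all higher, with a median of 0.44, and of 11 class II pathway genes 7, with a median of 0.59, where 19.7% of all genes were higher. The counts became 4 and 2 with upper quartile scaling (8.94% of all genes). None passed in the 6-tumor fit, and in the fit of 72 tumors 1 of 19 and 1 of 10 rose, near the 8.75% of all genes. H2-K1, a classical class I heavy chain, was at 595, 529 and 348 TPM against 257, 182 and 341 TPM and was the class I member that rose in the fit of 72 tumors (adjusted p = 0.0179). The class II chain gene H2-Ab1 was at 956, 741 and 495 TPM against 445, 312 and 461 TPM (adjusted p = 0.138 in the 6-tumor fit and 0.252 in the fit of 72), and H2-Eb1 and H2-Aa ran alongside at 545 to 983 and 539 to 911 TPM against 348 to 488 and 334 to 509 TPM. LEN tumor 5 was the lowest LEN tumor in each. Ctss, the protease cathepsin S that trims the class II invariant chain, was at 873, 829 and 431 TPM against 215, 150 and 292 TPM and was the class II pathway member that rose in the fit of 72 (adjusted p = 8.95e-05). Other class I members were H2-Q6 (58.0 to 110 TPM against 33.8 to 57.1 TPM), Tapbp (257 to 344 against 138 to 202 TPM) and H2-T23 (183 to 283 against 123 to 177 TPM). Reads of the near-identical H2 genes can be divided between them.

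Lymphocyte and interferon genes were spread widely. The 18 genes of the T-cell-inflamed gene expression profile (Tcell_inf_GEP), a published score of T-cell activity, had a median of 0.49 and 10 were higher at an unadjusted p under 0.05 (19.7% of all genes), but none passed in either fit. With upper quartile scaling 4 were higher and 1 lower (8.94% and 11.4% of all genes). Ccl5, a T-cell chemoattractant, was at 142, 146 and 89.5 TPM against 72.7, 27.8 and 80.0 TPM, and the PD-1 ligand genes were at 71.2, 76.9 and 52.5 TPM against 38.7, 26.1 and 39.2 TPM for Cd274 and at 38.6, 37.0 and 26.9 TPM against 18.2, 15 and 20.7 TPM for Pdcd1lg2. Every LEN tumor was above every NT tumor in all 3 genes, with adjusted p-values of 0.161, 0.0846 and 0.08. Of 29 T-cell genes, whose median was 0.28, 3 were higher at an unadjusted p under 0.05, below the 19.7% of all genes, and 15 without NT tumor 4, above the 21.8% of all genes. Il7r, the interleukin-7 receptor of resting and memory T cells, was at 10.9, 13.3 and 8.38 TPM against 3.62, 2.89 and 5.53 TPM and rose in the fit of 72 (adjusted p = 5.50e-04). Havcr2, the checkpoint receptor TIM-3, was at 8.82, 10.0 and 4.37 TPM against 4.54, 2.47 and 5.36 TPM, Il2ra at 3.58, 4.14 and 3.25 TPM against 1.42, 1.68 and 3.07 TPM and Cd4 at 11.3, 4.37 and 6.40 TPM against 4.44, 3.31 and 4.94 TPM. Cd8a and Cd3e lay at 22 to 31.1 and 22.5 to 27.2 TPM with LEN, inside the NT ranges of 14.7 to 28.7 and 13.1 to 33.1 TPM or just past them.

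Granzyme and perforin genes were highest in LEN tumor 4. Perforin (Prf1) was at 15.9, 21.4 and 10.3 TPM against 7.70, 3.50 and 8.25 TPM, and Gzmc, one of a cluster of related granzyme genes, at 7.87, 13.7 and 4.62 TPM against 2.28, 1.38 and 3.24 TPM. The neighbouring Gzmd and Gzmf were at 3.75 to 15.8 and 1.77 to 11.8 TPM against 1.44 to 2.74 and 0.82 to 1.67 TPM. The groups did not overlap in these 4 genes, as for 24.6% of all genes. Of 16 NK and cytotoxicity genes 5 were higher at an unadjusted p under 0.05, where 19.7% of all genes were, with a median of 0.50, and none passed in either fit.

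The interferon lists also had positive medians. Interferon-gamma response genes had a median of 0.39 with 3 of 25 at an unadjusted p under 0.05, and interferon-stimulated genes 0.23 with 6 of 28, where 19.7% of all genes were higher. The counts without NT tumor 4 were 3 of 25 and 11 of 28, where 21.8% of all genes were. Gbp2, an interferon-induced GTPase, was at 438, 473 and 255 TPM against 306, 158 and 241 TPM, Socs1, a brake on interferon signaling, at 45.1, 31.4 and 25.7 TPM against 26.1, 12.5 and 25.5 TPM and Ubd, an interferon-induced ubiquitin-like protein, at 76.6, 75.3 and 38.1 TPM against 42.2, 24.3 and 51.8 TPM. LEN tumor 5 lay within the NT range in each of these. The antiviral genes Oas3, Rsad2, Stat2 and Oasl2 had changes of 0.78, 0.68, 0.64 and 0.59, with adjusted p-values of 0.18, 0.14, 0.147 and 0.138.

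Of the dendritic cell genes, the chemokines Ccl17 and Ccl22, ligands of CCR4 made by mature dendritic cells, were higher in every LEN tumor, at 28.9, 49.3 and 41.7 TPM against 14.4, 13.6 and 24.2 TPM and at 8.72, 10.4 and 9.66 TPM against 3.44, 3.60 and 7.01 TPM. Both rose in the fit of 72 tumors (adjusted p = 0.0256 and 0.0274). Over 11 dendritic cell genes the median was 0.48, with 4 higher and 1 lower at an unadjusted p under 0.05 (19.7% and 3.97% of all genes). Itgax, the integrin CD11c, was at 84.0, 89.6 and 65.6 TPM against 50.5, 42.4 and 62.0 TPM, and Cd209a at 3.54, 0.60 and 1.5 TPM against 0.64, 0.54 and 1.2 TPM. Immunoglobulin genes were set by LEN tumor 1, with Igkc at 802, 92.3 and 128 TPM against 43.5, 74.2 and 173 TPM and Ighm at 485, 56.8 and 44.8 TPM against 25.2, 50.3 and 108 TPM. The median of the 6 tested of 14 B and plasma cell genes, 0.91, fell to 0.07 without LEN tumor 1. Among 7 tested leukocyte adhesion genes 1 was higher and 1 lower at an unadjusted p under 0.05, with a median of 0.32 (19.7% and 3.97% of all genes), and without NT tumor 4 the counts were 4 and 1 (21.8% and 2.83%).

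Cell cycle genes were lower. Of 30 genes 27 had a negative change, 20 were lower in every LEN tumor than in every NT tumor and 19 had an unadjusted p under 0.05, all lower, where 3.97% of all genes were. Without NT tumor 4 that count was 10 (2.83% of all genes). The median log2 change was -0.31, -0.46 after upper quartile scaling and -0.23 without NT tumor 4. None passed in the 6-tumor fit, and the fit of 72 tumors called 1 lower, Cdc20, none without NT tumor 4 and 22 with upper quartile scaling (6.24% of all genes). Ccne2, a G1/S cyclin, was at 3.63, 4.38 and 3.74 TPM against 6.59, 7.12 and 7.72 TPM, a change of -0.73 ± 0.12 (adjusted p = 0.0693). E2f8, a repressor of E2F targets that peaks in S phase, was at 6.66, 7.51 and 6.93 TPM against 9.51, 11.2 and 13.5 TPM, and the mitotic kinase Cdk1 at 80.8, 79.6 and 73.7 TPM against 96.0, 108 and 126 TPM. The groups did not overlap in these genes. Ccne1, the other cyclin E, was at 4.28, 3.61 and 4.71 TPM against 4.26, 5.49 and 10.3 TPM and did overlap. The proliferation antigen Mki67 was at 39.0, 44.5 and 43.6 TPM against 49.1, 50.7 and 64.7 TPM, below the treatment-naive tumors at 54.6 to 60.4 TPM as well. The LEN tumors lay close together in the mean of the list, at 4.55, 4.58 and 4.58, against 4.70, 4.86 and 5.05 in NT tumors, of which NT tumor 4 was the highest.

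Hepatocyte genes had changes of both signs, but only falls passed in the fit of 72 tumors. Of 47 genes 29 were expressed enough to be tested, with a median of -0.05 that turned to 0.06 without LEN tumor 1, and 1 was higher and 3 lower at an unadjusted p under 0.05, where 19.7% of all genes were higher and 3.97% lower. After upper quartile scaling 9 were lower (11.4% of all genes). In the fit of 72 tumors 4 of 23 fell (0.939% of all genes). Ttr, the plasma thyroxine carrier transthyretin, was at 9.56, 11.4 and 18 TPM against 27.1, 33.4 and 18.4 TPM, a change of -0.97 ± 0.28 (adjusted p = 0.117 in the 6-tumor fit and 8.82e-07 in the fit of 72). LEN tumor 5 was level with NT tumor 4. The plasma protein genes Ambp, at 4.5, 6.89 and 12.5 TPM against 11.9, 12.9 and 12.7 TPM, and Apoa1, at 16.5, 20.2 and 29.1 TPM against 35.8, 42.7 and 26.3 TPM, fell in the fit of 72 as well (adjusted p = 0.00556 and 0.00302), and so did the liver pioneer factor Foxa1 (0.0137), at 2.15, 2.43 and 2.56 TPM against 4.40, 4.19 and 3.24 TPM. LEN tumor 5 was the highest LEN tumor in each. Serpina6 and Vtn, a steroid carrier and vitronectin, were at 2.10 to 7.37 and 1.97 to 6.78 TPM against 5.75 to 15.1 and 5.50 to 7.57 TPM, with overlap. Among 4 tested mammary epithelial genes, a list of another tissue with little expression here, the median was -0.79, and Krt23, an epithelial keratin, was at 0.35, 0.51 and 0.68 TPM against 2.00, 3.78 and 2.04 TPM.

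Mitochondrially encoded transcripts were mostly lower, and nuclear genes of the same complexes had a median below that of all genes. Of the 13 mitochondrial protein-coding genes 9 were lower and 1 higher at an unadjusted p under 0.05 (3.97% and 19.7% of all genes), with a median of -0.62. mt-Nd3 was at 388, 503 and 562 TPM against 910, 878 and 1025 TPM and mt-Atp8 at 2502, 4128 and 4336 TPM against 6792, 6591 and 7038 TPM. LEN tumor 1 was the lowest in both, and all LEN tumors were below all NT tumors. mt-Nd3, mt-Atp8 and mt-Nd2 fell in the fit of 72 tumors (adjusted p = 0.0446, 0.0398 and 0.0426), a call that none of the 3 kept without NT tumor 4. mt-Atp6 was at 616, 1217 and 1209 TPM against 1534, 1645 and 2074 TPM, whereas mt-Co1 overlapped at 3669, 5117 and 5014 TPM against 4966, 4500 and 4998 TPM. mt-Nd6, which lies on the other strand of the mitochondrial genome, went the other way at 1127, 1152 and 1026 TPM against 845, 739 and 746 TPM and rose in the fit of 72 (adjusted p = 0.0015). The 20 nuclear respiratory chain genes had a median of -0.05, against 0.14 for all genes, with 2 lower and 1 higher at an unadjusted p under 0.05. Scaling to the upper quartile gave 9 lower (11.4% of all genes), and 6 fell in the fit of 72 (6.24%). Without that scaling 1 fell in that fit, Ndufa4, a cytochrome c oxidase subunit, at 108, 122 and 135 TPM against 173, 192 and 180 TPM (adjusted p = 0.043).

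Stress and metabolic lists gave mixed directions. Of 22 integrated stress response genes 7 were higher and 4 lower at an unadjusted p under 0.05 (19.7% and 3.97% of all genes), and the median of 0.10 became -0.05 after upper quartile scaling. In the fit of 72 tumors 5 of 23 rose and 1 fell (8.75% and 0.939% of all genes), but 1 rose and 4 fell with upper quartile scaling (5.19% and 6.24%), and 2 rose and 1 fell without NT tumor 4 (9.91% and 0.663%). Nupr1, a small stress-induced chromatin protein, was at 31.8, 33.2 and 29.1 TPM against 13.0, 10.8 and 20.0 TPM, a change of 1.10 ± 0.21 (adjusted p = 0.0777 in the 6-tumor fit, 0.0203 without NT tumor 4 and 6.33e-07 in the fit of 72). The LEN tumors were tight and the NT tumors well below them. Vldlr, a lipoprotein receptor, was at 34.7, 31.1 and 42.1 TPM against 23.8, 22.3 and 23.2 TPM, Slc7a11, the cystine importer, at 22.9, 23.2 and 22.3 TPM against 16.7, 13.9 and 15.5 TPM and the transcription factor Cebpb at 108, 98.8 and 89.0 TPM against 70.9, 66.8 and 68.8 TPM. Each of these separated the groups and rose in the fit of 72 (adjusted p = 0.0332, 0.0406 and 0.0149). Of 20 p53 targets 15 had a negative and 5 a positive change, 5 were lower and 1 higher at an unadjusted p under 0.05 (3.97% and 19.7% of all genes), and the median was -0.12. The higher one, the p53 antagonist Mdm2, was at 95.1, 88.8 and 78.0 TPM against 69.1, 67.2 and 71.4 TPM. After upper quartile scaling 9 p53 targets were lower and none higher (11.4% and 8.94% of all genes). In the fit of 72 tumors Mdm2 rose and none fell, but with upper quartile scaling none rose and 6 fell (5.19% and 6.24% of all genes). Cholesterol and lipid synthesis genes had a median of 0.00 over 26 genes, below the 0.14 of all genes, and -0.14 after upper quartile scaling. Among 8 abundant non-coding RNAs Neat1 rose, and Malat1, its nuclear neighbour, was at 3249, 3186 and 2682 TPM against 2123, 1858 and 1935 TPM (adjusted p = 0.08 in the 6-tumor fit and 0.00933 in the fit of 72), with a list median of -0.13.

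Markers of surrounding tissue overlapped between the groups for muscle, skin and red cells, while the summed adipocyte level was higher in every LEN tumor. The 20 skeletal muscle genes had summed levels of 443, 86.7 and 14.4 TPM in LEN tumors and 84.9, 73.4 and 32.6 TPM in NT tumors, with the highest and the lowest of the 6 both treated. The median change of the 19 tested, 0.63, became -0.38 without LEN tumor 1. Adipocyte genes were summed at 226, 138 and 127 TPM against 112, 105 and 119 TPM, although their mean log2(TPM + 1) overlapped (4.02, 2.29 and 2.13 against 2.45, 2.49 and 2.23), and 2 of 9 tested were higher at an unadjusted p under 0.05, near the 19.7% of all genes. The adipose serine protease Cfd was at 34.4, 0.14 and 0.00 TPM against 1.25, 2.86 and 0.53 TPM, so that it too was set by LEN tumor 1. The 18 keratinocyte genes, only 4 of which were tested, had summed levels of 43.9 to 54.1 TPM against 43.0 to 51.5 TPM, and the defining keratins Krt5 and Krt14 stayed at 0.43 TPM or below in all 6 tumors. Hemoglobin genes of red cells were at 75.8, 22.4 and 33.3 TPM (Hba-a1) and 95.5, 28.7 and 54.7 TPM (Hbb-bs) against 27.8, 25.3 and 28.8 and 39.9, 50.4 and 53.2 TPM, overlapping between the groups. Of the Schwann cell and nerve genes, Ncam1 was at 8.09, 9.58 and 7.23 TPM against 2.55, 4.06 and 7.39 TPM and rose in the fit of 72 (adjusted p = 0.0284), while Sox10, which defines Schwann cells, was at 0.19 TPM or below in all 6 tumors. The part of these cells in the differences above was not tested.

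The response of Hepa 1-6 was next set against that of the other 11 models, tested as the Hepa 1-6 change minus the mean of their changes in the fit of 72 tumors. Only Hepa 1-6 was grown in C57L/J mice, and of the other models only BNL was grown in males. Cell line, host strain and host sex therefore cannot be told apart in this comparison. At an adjusted p under 0.05 the difference was positive for 1313 genes (7.57%) and negative for 108 (0.622%), and with upper quartile scaling for 877 (5.07%) and 684 (3.96%). Its median over all genes was 0.13. Single tumors weighed on these counts, which were 318 and 36 without NT tumor 3, 563 and 75 without NT tumor 2, 451 and 49 without LEN tumor 1, 831 and 59 without LEN tumor 4, 1156 and 166 without LEN tumor 5, and 1620 (9.34%) and 107 (0.617%) without NT tumor 4.

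The median change of endothelial genes was less negative in Hepa 1-6 than in the other models. In the mean of the other 11 models 28 of 30 endothelial markers fell, where 11.3% of all genes did, with a median of -0.72, and the median difference of Hepa 1-6 from them was 0.44. For 7 of 30 markers the difference passed, all 7 higher in Hepa 1-6 (7.57% of all genes were), and for 5 with upper quartile scaling (5.07%). Flt4 changed by 0.10 in Hepa 1-6 and by -0.82 elsewhere (difference 0.92 ± 0.15, adjusted p = 7.00e-05), Eng by 0.53 and -0.35 (0.89 ± 0.22, adjusted p = 0.00801) and Flt1 by 0.29 and -0.50 (0.79 ± 0.24, adjusted p = 0.0305, and 0.0516 with upper quartile scaling). In BNL alone Flt4, Eng and Flt1 changed by -1.66, -0.19 and 1.13. For Cdh5, Esm1, Mcam and Rgs5, which were lower in all 3 LEN tumors here, the other models changed by -1.2, -1.30, -0.86 and -0.95, and the differences of 0.26, -0.14, 0.23 and 0.16 did not pass. The MVD gene score changed by between -1.05 and -0.45 in the other 11 models, each below the -0.20 of Hepa 1-6. Of 332 EC-related genes 54 had a higher and 1 a lower response in Hepa 1-6 (7.57% and 0.622% of all genes), 196 fell in the mean of the other models, and the list median was the highest of the 12 models in Hepa 1-6.

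Igfbp3, an insulin-like growth factor carrier, was picked after its values were seen. It was at 305, 305 and 384 TPM with LEN and 320, 300 and 296 TPM without, a log2 change of 0.11 that became -0.04 after upper quartile scaling, against -1.62 in the other models (difference 1.73 ± 0.18, adjusted p = 3.65e-09). Hemoglobin genes behaved likewise. Hba-a1, Hba-a2, Hbb-bt and Hbb-bs changed by 0.48, 0.42, 0.34 and 0.16 in Hepa 1-6, the last one by -0.26 without LEN tumor 1, and by -2.36, -2.38, -1.54 and -2.66 in the mean of the other models. All 4 differences passed, with adjusted p-values from 0.00232 to 0.0395, although that of Hbb-bt did not with upper quartile scaling (0.0518) or without NT tumor 4 (0.0741), and reads of these near-identical genes can be divided between them.

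Matrix and macrophage genes differed as well. For 11 of 18 matrix genes the response of Hepa 1-6 was higher (7.57% of all genes), with a median difference of 1.02 against a median change of -0.07 in the other models, and for none lower. Mmp2 differed by 1.73 ± 0.32 (adjusted p = 4.25e-04) and Col3a1 by 1.57 ± 0.37 (0.00595). Of 17 macrophage genes 9 had a higher response (7.57% of all genes) and none a lower one, with a median difference of 0.98, as 12 of them fell in the mean of the other models. Csf1r changed by 0.64 in Hepa 1-6 and -0.55 elsewhere (1.19 ± 0.23, adjusted p = 6.82e-04), Mrc1 by 0.69 and -0.64 (1.32 ± 0.33, 0.00772) and Trem2 by 1.24 and -0.31 (1.55 ± 0.22, 1.53e-05). B16F10, a melanoma model, was above Hepa 1-6 in both lists, with medians of 1.25 for matrix and 1.36 for macrophage genes. Cilp, the gene with the largest called rise, changed by -0.06 elsewhere (difference 2.66 ± 0.26, adjusted p = 9.59e-10).

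Most hypoxia genes also rose in the mean of the other models. Of 35 tested, 31 rose there, where 11.6% of all genes did, with a median of 0.36, and 1 member, Pfkfb4, had a different response (difference 0.94 ± 0.24, adjusted p = 0.00893). Without NT tumor 4 the response was higher in Hepa 1-6 for 4 members, among them Lox (1.44, adjusted p = 0.0138) and Slc16a3 (0.77, adjusted p = 0.0238). Vegfa rose by 0.66 there and differed by 0.07 ± 0.20. Cell cycle genes, with 22 of 30 lower in the other models, gave no different member in the limma fit of 72 tumors, and neither did the interferon lists, the T-cell list, the pericyte list or the cytotoxicity list. With upper quartile scaling 2 cell cycle genes and 1 T-cell gene had a lower response in Hepa 1-6. Of 23 hepatocyte genes 4 had a lower response (0.622% of all genes), Ttr (-1.01 ± 0.13, adjusted p = 1.55e-06), Apoa1, Foxa1 and Ambp, with Serpind1 (-1.04 ± 0.15, adjusted p = 6.61e-06) outside the list. Most of the other models are not liver tumors, and apart from BNL (1.17) their list medians were -0.061 (RAG) to 0.058 (B16F10). Ttr changed by 0.04 in their mean, so its lower response is in effect its fall in Hepa 1-6. The SE of that fall was 0.278 in the 6-tumor fit and 0.125 in the fit of 72. The 13 mitochondrially encoded genes had a median difference of -0.60, with none past the threshold but 5 lower with upper quartile scaling, and the 4T1 mammary model, at -1.197, was lower than Hepa 1-6 at -0.62.

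By the size of the difference alone, the highest values belonged to short RNAs. Mirlet7d was at 160, 0.00 and 55.6 TPM with LEN and listed at 0 in every NT tumor, and Gm22953, Gm25827, Gm22840 and Mir760 were likewise listed at 0 in every NT tumor and in 1 LEN tumor each. At the low end, Gm25973 was joined by the short RNAs Gm27582 (0.00, 12.2 and 0.00 TPM against 39.5, 34.8 and 34.2 TPM), Gm26232 and Gm24830. Gm26232 and Gm24830 had the same value in every Hepa 1-6 tumor, 8.76, 0.00 and 7.78 TPM against 34.8, 46.1 and 34.5 TPM, so they share their reads and count as 1. The last of the lowest 5 was a protein-coding gene. Mcpt2, a mast cell protease, was at 0.10, 0.38 and 0.12 TPM with LEN against 6.99, 7.13 and 2.18 TPM without, and at 3.22, 0.58 and 1.5 TPM in treatment-naive tumors (difference -2.58 ± 0.41, adjusted p = 5.69e-05).

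BNL 1ME A.7R.1 is the other liver tumor model of the series. Against its response, 588 genes (3.39%) were higher and 1375 (7.92%) lower in Hepa 1-6 at an adjusted p under 0.05. After upper quartile scaling 1134 were higher and 1664 lower (1157 and 1687 after protein-coding rescaling). Cilp, with a difference of 3.49, was among the 3 highest, beside Mir215, seen in LEN tumor 1 only, and Mirlet7d. Genes of muscle, fat and liver were among the lower ones. The median change of the muscle genes was 4.34 in BNL, that of adipocyte genes 2.21 and that of hepatocyte genes 1.17, and 18 of 19 muscle genes, 6 of 8 adipocyte genes and 15 of 23 hepatocyte genes had a lower response in Hepa 1-6 (7.92% of all genes). The lowest differences were those of Sprr2a2, Sprr2a3 and Gm10163, epithelial cornified envelope genes and a predicted gene that were at 1.27 TPM or below (Sprr2a2, Sprr2a3) and at 0.00 to 7.04 TPM (Gm10163) in the Hepa 1-6 LEN tumors. For endothelial markers 11 of 30 had a higher and 1 a lower response in Hepa 1-6 (3.39% and 7.92% of all genes), where the BNL median was -1.11.

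**Figure D4:**
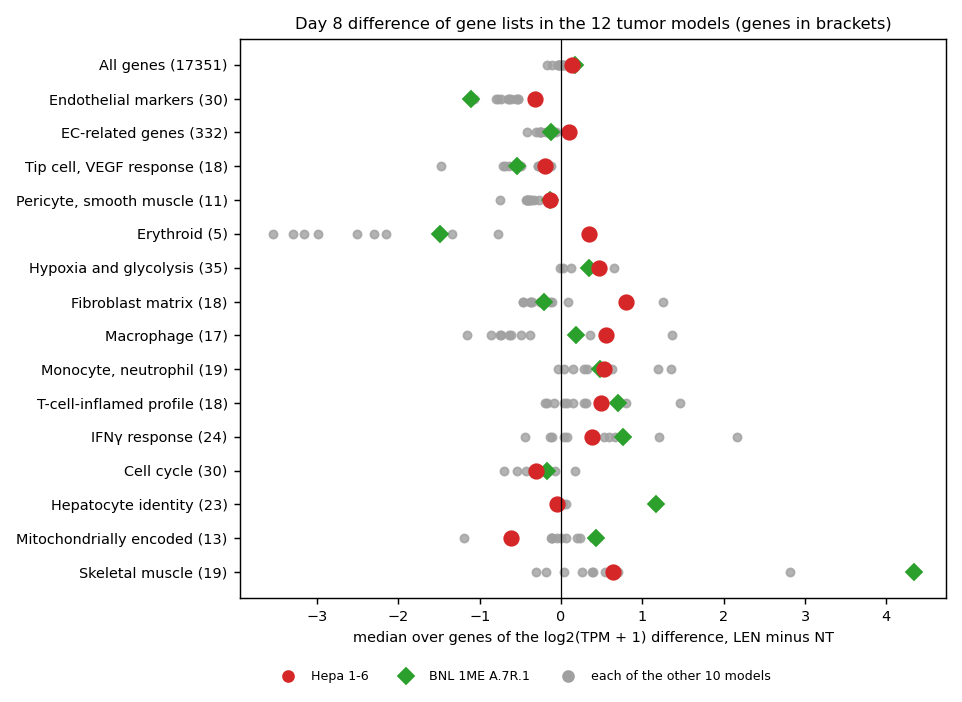
Median over the genes of a list of the log2(TPM + 1) difference, LEN minus NT on day 8, for 16 rows (all genes and 15 lists) in Hepa 1-6 (large red point), BNL 1ME A.7R.1 (green diamond) and each of the other 10 models (grey points). Hepa 1-6 is the rightmost point for endothelial markers (-0.33), EC-related genes (0.10) and erythroid genes (0.34), and lies within the range of the others for hypoxia and cell cycle genes.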

How the data were processed

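Bulk RNA of the tumors was depleted of ribosomal RNA and sequenced. The submitters' processing notes name bcl2fastq, Trimmomatic 0.36, STAR 2.5.2b and RSEM 1.2.31 with mm10/GRCm38, and the authors deposited 1 table of TPM, relative transcript abundance, for 50686 genes and 107 tumors. TPM keeps no read depth, so the depth of each tumor is unknown and no counting error is given. Counting by strand is not given in the sources used here, and values of near-identical genes (H2, hemoglobin, granzyme, histone, Sprr2a and snoRNA genes) are uncertain.

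Tumors were grouped by their titles. Genes with a mean of at least 1 TPM were tested on log2(TPM + 1) with limma 3.58.1 (R 4.3.3, mean-variance trend, Benjamini-Hochberg, threshold 0.05, two-sided) in the 6 tumors. Fold changes on this scale understate changes of low genes. A fit of all 72 day 8 tumors in 24 groups gave the differences between models and served as an alternative for Hepa 1-6. It takes the spread of Hepa 1-6 to be that of all models. Tables were made with python 3.11.15, numpy 2.4.6 and pandas 2.3.3, and the fits were tested on simulated data. Alternatives were a pseudocount of 0.1, other TPM minimums, upper quartile scaling, rescaling to protein-coding genes, no trend, the replicate block and leaving out each tumor.

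Named genes were the MVD score genes, the receptors, the called genes or, where fewer than 10 were called on a side, those of lowest p up to 5, up to 4 members a list, and the 5 highest and lowest differences from the other models (3 from BNL). Genes named beyond this rule, among them Cxcl12, Igfbp3, Gpx2, Xcl1, Malat1 and Pecam1, were chosen after their values were seen. The members, the 35 gene lists and the tests were chosen with earlier results of these data known, and the EC-related genes were picked by the study from this tumor type. Promoter sequences are from RefSeq (GRCm38.p6), gene positions from GENCODE M21. Some genes that the rule names are not reported here.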

Additional observations from a re-analysis of the deposited data

Results flagged for a closer look

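The results below drew attention because the LEN response of Hepa 1-6 differed from that of other models by a test of the difference itself, in the limma fit of 72 tumors. Against the mean of the other 11 models, 1313 genes had a higher and 108 a lower response at an adjusted p under 0.05, and against BNL 588 and 1375. All values are differences of log2(TPM + 1) changes, Hepa 1-6 minus the other models.

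Vessel and receptor genes with a higher response were Eng (0.89), Flt1 (0.79), Flt4 (0.92), Pdgfra (0.92), Vegfd (0.72), Nrp2 (0.57), Igfbp3 (1.73) and Ace (1.41). In the matrix and stroma, the values were 2.66 for Cilp, 1.73 for Mmp2, 1.57 for Col3a1, 1.10 for Col1a1, 1.23 for Pdpn, 1.89 for Cxcl12, 0.75 for Pmp22 and 1.03 for Ncam1. Myeloid and antigen presentation genes gave 1.45 for Clec4d, 1.55 for Trem2, 1.32 for Mrc1, 1.19 for Csf1r, 1.97 for Chil3, 1.60 for Nos2 and 1.69 for Ctss. Other genes with a higher response were Hdac5 (0.74), Ahnak2 (0.58), Neat1 (0.73), Pfkfb4 (0.94), Nupr1 (0.94) and Mgll (1.24), and the hemoglobin genes Hba-a1 (2.84), Hba-a2 (2.81), Hbb-bt (1.88) and Hbb-bs (2.82). With upper quartile scaling the difference no longer passed for Hdac5 (adjusted p = 0.103), Neat1 (0.0599), Flt1 (0.0516), Col1a1 (0.0924) and Hbb-bt (0.0518), and without NT tumor 4 for Ahnak2 (0.063) and Hbb-bt (0.0741). Lower responses were seen for the liver genes Serpind1 (-1.04), Ttr (-1.01), Ambp (-0.61), Foxa1 (-0.72) and Apoa1 (-0.75) and for Asb2 (-1.19), Gpx2 (-1.62) and Xcl1 (-1.61). In the mean of the other models, most of them not liver tumors, Serpind1, Ttr and Ambp changed by only -0.01, 0.04 and -0.08.

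The extremes were short RNAs, many of them listed at 0 in one group, whose fitted values depend on the pseudocount and are no folds. The highest against the other 11 models were Mirlet7d (4.60), Gm22953 (4.35), Gm25827 (3.79), Gm22840 (3.52) and Mir760 (3.43), and the lowest Gm25973 (-3.99), Gm27582 (-3.87), Gm26232 and Gm24830 (-3.33 each) and the mast cell protease gene Mcpt2 (-2.58). Of these 10 calls, 7 no longer passed without NT tumor 3, 6 without NT tumor 2 and 2 without NT tumor 4. Leaving out LEN tumor 1, 4 or 5 ended 4 of the calls each time. Against BNL the highest were Mir215 (4.82), Mirlet7d (4.38) and Cilp (3.49) and the lowest Sprr2a2 (-6.30), Sprr2a3 (-6.29) and Gm10163 (-6.12).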

How the results depend on the processing

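No paired analysis was possible because the NT tumors (2, 3 and 4) and LEN tumors (1, 4 and 5) of Hepa 1-6 share only the number 4. With the replicate block in the fit of 72 tumors (correlation 0.0813, chosen after seeing the data) 1568 genes rose and 173 fell, against 1519 and 163 without it. In the 6 tumors, where 7 genes rose and 4 fell, no gene rose and 1 fell without a TPM minimum and likewise without the mean-variance trend, 143 rose and 13 fell at a minimum of 5 TPM, 2 rose and 2 fell after upper quartile scaling, 2 rose after rescaling to protein-coding genes, and leaving out 1 tumor gave 0 to 253 higher and 1 to 22 lower. The cause was not tested. Genes with a lower response than in the other 11 models numbered 59 at a pseudocount of 0.1, 502 without a minimum, 56 at 5 TPM, 684 after upper quartile scaling and 342 after protein-coding rescaling, and leaving out 1 tumor gave 36 to 166 lower and 318 to 1620 higher. Against BNL the higher ones numbered 1039 without a minimum, 348 at 5 TPM, 1134 after upper quartile and 1157 after protein-coding scaling. Upper quartile scaling, which lowers the median of all genes from 0.14 to 0.01, moved the list medians to -0.34 (tip cell), -0.046 (receptors), -0.11 (FGF and MAP kinase), -0.22 (pericyte), 0.32 (hypoxia), -0.14 (cholesterol), -0.045 (stress response), -0.46 (cell cycle), -0.27 (p53), 0.024 (keratinocyte), -0.28 (non-coding) and -0.20 (nuclear respiratory). A pseudocount of 0.1 gave 0.59 for ligands and -1.05 for mammary genes, and protein-coding rescaling -0.95 for mammary and -0.12 for nuclear respiratory genes. Leaving out 1 tumor moved the medians over -0.47 to -0.15 (MVD genes), -0.28 to -0.15 (tip cell), -0.057 to 0.14 (receptors), -0.16 to 0.02 (pericyte), 0.30 to 0.87 (monocyte and neutrophil), 0.006 to 0.22 (keratinocyte), -0.93 to -0.55 (mammary), -0.14 to -0.055 (non-coding) and -0.12 to -0.032 (nuclear respiratory). Of the named genes' changes in Hepa 1-6, 1752 values kept direction and side of the threshold, 112 newly passed, 81 no longer passed and 9 turned: Flt4 (-0.046 after upper quartile scaling, and -0.057 without LEN tumor 5 to 0.19), Igfbp3 (-0.042 after upper quartile scaling), mt-Co1 (-0.17 to 0.073), Gm10163 (-0.999 to 0.50), Hbb-bs (-0.26 to 0.60) and Ighm (-0.037 to 1.67), each turned without LEN tumor 1, S100a9 (-0.10 without NT tumor 3, to 1.73) and Cfd (-0.54 at a pseudocount of 0.1). Without a read depth, the reliability of genes near 1 TPM could not be set.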

Other observations

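Replication-dependent histone genes, which package newly made DNA and are on no list above, were lower with LEN. They were chosen after their values were seen, as the 65 tested genes with symbols starting with Hist, and 47 were lower and 1 higher at an unadjusted p under 0.05 (3.97% of all genes were lower), with 45 lower in every LEN tumor than in every NT tumor (5.02% of all genes). The median log2 change was -0.62. None passed in the 6-tumor fit, while 25 fell in the limma fit of 72 tumors (0.939% of all genes), 46 with upper quartile scaling (6.24%) and 8 without NT tumor 4 (0.663%). In the other 11 models their median was -0.39, and none differed between Hepa 1-6 and those models. Reads of these near-identical genes can be divided between them.

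Of the genes picked after their values were seen, Xcl1 and Gpx2 were lower in Hepa 1-6 but not in the mean of the other models. Xcl1, a chemokine of NK and CD8 T cells that attracts cross-presenting dendritic cells, was at 2.84, 1.95 and 0.76 TPM in LEN tumors 1, 4 and 5 and at 5.36, 6.19 and 6.41 TPM in NT tumors 2, 3 and 4. Its log2 change was -1.36 ± 0.28 (limma adjusted p = 0.0811 in the 6-tumor fit and 0.0281 in the fit of 72), against 0.24 in the other models. Gpx2, an epithelial glutathione peroxidase, was at 0.18, 1.25 and 1.02 TPM against 2.48, 5.38 and 5.85 TPM, a change of -1.61 ± 0.36 (limma adjusted p = 0.0854 and 1.11e-06), against 0.01 in the other models. The groups overlapped in neither gene, while treatment-naive tumor 3, at 0.45 TPM of Gpx2, was as low as the LEN tumors.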
